A study of Saccharomyces cerevisiae with 8 samples.

Results

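Messenger RNA of a yeast strain labelled A880STM1 was set against that of BY4741, its labelled wild type, after both had been moved from glucose to glycerol. The comparison rests on the 2 arrays titled with each strain name, 4 of the 8 arrays of the study, and on the 5496 of 5498 Saccharomyces cerevisiae probe sets that lay above background. A880STM1 is labelled as A880 that took up STM1 by transformation. A880 is labelled as BY4741 without POP2, and BY4741 carries no change named in the labels. The remaining strain, A880STM1K, is labelled as A880 given STM1 with a lysine in place of an arginine, and A880 and A880STM1K are quoted only as side values. All strains were grown in synthetic complete medium with 2% glucose to an OD600 of 1, washed, and kept for 12 hours in the same medium with 2% glycerol. The promoter, vector and selection marker that carried STM1, and the number of transformants used, are not named in the labels. The 2 arrays of a strain came from separate cultures and experiments, per the series text. The question set by the labels is what still differs from the wild type in the strain given STM1.

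POP2 encodes one of the deadenylases of the CCR4-NOT complex, which shortens the poly(A) tails of messenger RNAs and so begins their decay, and which also acts in transcription. STM1 encodes a protein that binds ribosomes and nucleic acids and is known for preserving ribosomes when nutrients run out. Glycerol cannot be fermented by this yeast. Cells placed on it depend on mitochondrial respiration, and they take up glycerol, phosphorylate it in the cytosol and oxidise it at the mitochondrial inner membrane.

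Of 5496 probe sets tested, 643 (11.7%) passed an adjusted p of 0.05, 297 higher (5.40%) and 346 lower (6.30%) on the A880STM1 arrays. The tests are those of limma on the log2 signal, adjusted by the Benjamini-Hochberg method over all tested probe sets, and every adjusted p below is of that kind. A value after ± is limma's standard error of the log2 difference. It rests on the spread pooled over the 4 strains and is not the spread of the 2 arrays of a strain. A change of at least 2-fold was found for 488 of the 643, and of at least 4-fold for 81, of which 54 were higher and 27 lower. The A880STM1 arrays stood apart in spread. Replicates differed by a median of 0.465 on the log2 scale in A880STM1 and of 0.144 in BY4741, and A880STM1 replicate 1 had a median signal of 484.5 against 627.5 in replicate 2 of that strain and 662.3 and 669.0 on the BY4741 arrays. The count of calls was 97 without A880STM1 replicate 1, 1951 without A880STM1 replicate 2, 103 without BY4741 replicate 1 and 99 without BY4741 replicate 2. A call is described below as kept when it passed in the same direction under quantile normalization, under equal array medians and without each of these 4 arrays in turn. This held for 66 probe sets (1.20% of those tested), 49 higher (0.892%) and 17 lower (0.309%). The remaining calls named below were each lost under at least 1 of those 6 alternatives, most often when an array was left out. The median log2 difference over all tested genes was -0.24, and it was 0.03 with equal array medians and -0.08 after quantile normalization, so medians of gene groups are also given relative to the median of all genes. The signals of the 2 strains did not overlap for 3660 probe sets (66.6%), with A880STM1 higher in 22.3% and lower in 44.3% of those tested, and for all 643 that were called.

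**Figure D1:**
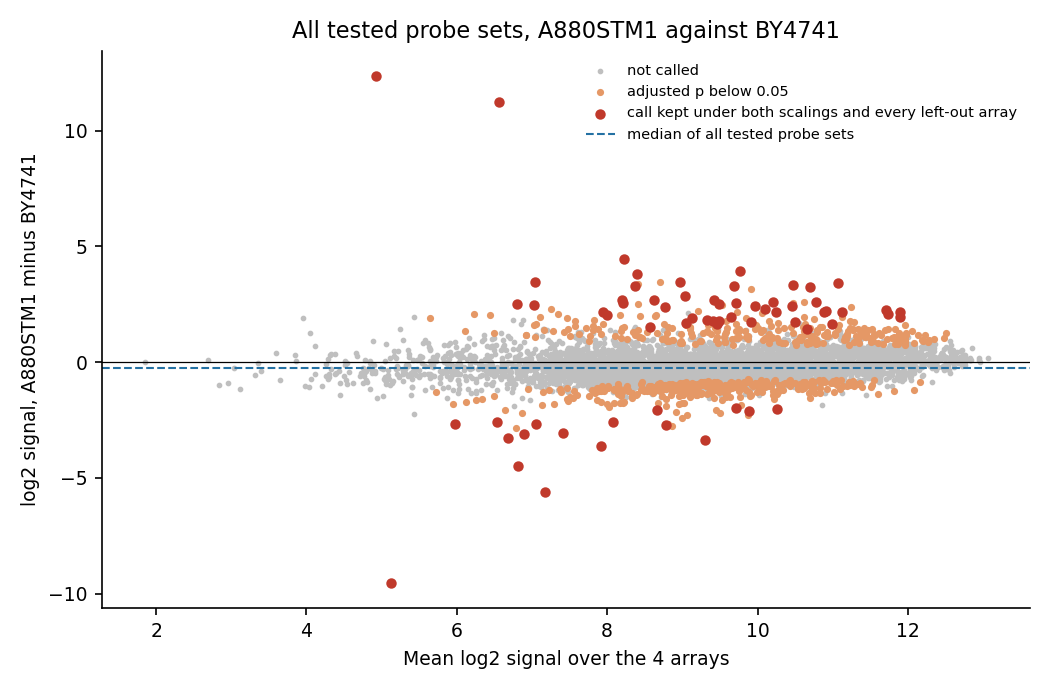
Each point is 1 of the 5496 tested probe sets, with the mean log2 signal over the 4 arrays on the horizontal axis and the log2 signal of A880STM1 minus BY4741 on the vertical axis. Orange points passed the adjusted p of 0.05, red points are the 66 whose call was kept under every listed alternative, and the dashed line is the median of all tested probe sets (-0.24), which lies below 0.

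POP2, the gene given as deleted, was detected on the arrays labelled A880STM1. Its signal was 181 and 286 on the A880STM1 arrays, 255 and 176 on the A880STM1K arrays, 0.221 and 0.452 on the A880 arrays and 883 and 814 on the BY4741 arrays. Both A880STM1 arrays lay below both BY4741 arrays and far above the background level, which was between 5.15 and 8.40, while both A880 arrays lay under it. POP2 was lower on the A880STM1 arrays than on the BY4741 arrays by a log2 difference of -1.90 ± 0.45 (adjusted p = 0.027), at 27.5% of the BY4741 mean. That call was lost without A880STM1 replicate 1 (adjusted p = 0.182), BY4741 replicate 1 (0.192) or BY4741 replicate 2 (0.184). Since the signal goes against the label of a strain without POP2, "A880STM1" below means the arrays that carry this label.

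STM1 was higher on the A880STM1 arrays. Its signals were 9441 and 5027 in A880STM1, 2960.3 and 3096 in A880 and 2043 and 2566 in BY4741, with both A880STM1 arrays above every A880 and BY4741 array and replicate 1 well above replicate 2. The log2 difference from BY4741 was 1.59 ± 0.28 (adjusted p = 0.00854), and the call was lost without BY4741 replicate 1 (log2 1.43, adjusted p = 0.0927).

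Genes used as markers in laboratory yeast also separated the strains. CAN1, the arginine permease, had 2258 and 2127 on the A880STM1 arrays, 920.4 and 775 on the A880 arrays and 0.318 and 0.551 on the BY4741 arrays, the last below background, so that it was at least 338.1-fold higher in A880STM1 (adjusted p = 1.14e-08). URA3, a uracil synthesis gene, had 4956 and 4315 on the A880STM1 arrays, 5062 and 5537 on the A880 arrays and 3.32 and 1.14 on the BY4741 arrays, at least 713.5-fold higher in A880STM1 (adjusted p = 1.24e-07). A bound of this kind is the geometric mean of the bright arrays over the background level of the dim ones. As background, BY4741 is known as a MATa strain that lacks LEU2, MET17 and URA3, carries a defective HIS3 and keeps CAN1. On the arrays labelled BY4741, LEU2 and MET17 were above background and CAN1 was not, so that this name too stands below for arrays that carry the label. LEU2, a leucine synthesis gene, had 7704 and 3412 on the A880STM1 arrays, 248 and 214 on the A880 arrays and 529.8 and 542 on the BY4741 arrays. It was higher by log2 3.26 ± 0.33 in A880STM1 than in BY4741 (adjusted p = 0.000396), a call that was kept. MET17, a sulfhydrylase of methionine synthesis, had 2013 and 1210.3 in A880STM1 and 713 and 2179.7 in BY4741, and the strains overlapped (log2 0.32, adjusted p = 0.631). HIS3, of histidine synthesis, had 983 and 729.6 in A880STM1 and 667 and 591 in BY4741 (log2 0.43, adjusted p = 0.229). Of the 7 marker genes tested, CAN1, URA3 and LEU2 were called, all 3 higher (42.9%, against 5.40% of all probe sets). YBR013C, an open reading frame on chromosome II, was the only gene seen in BY4741 at over 5 times background on both arrays and on neither A880STM1 array above background, with 1.86 and 0.889 in A880STM1, 0.150 and 0.149 in A880 and 900.4 and 997 in BY4741. It was at least 132.1-fold lower in A880STM1 (adjusted p = 0.000267).

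**Figure D2:**
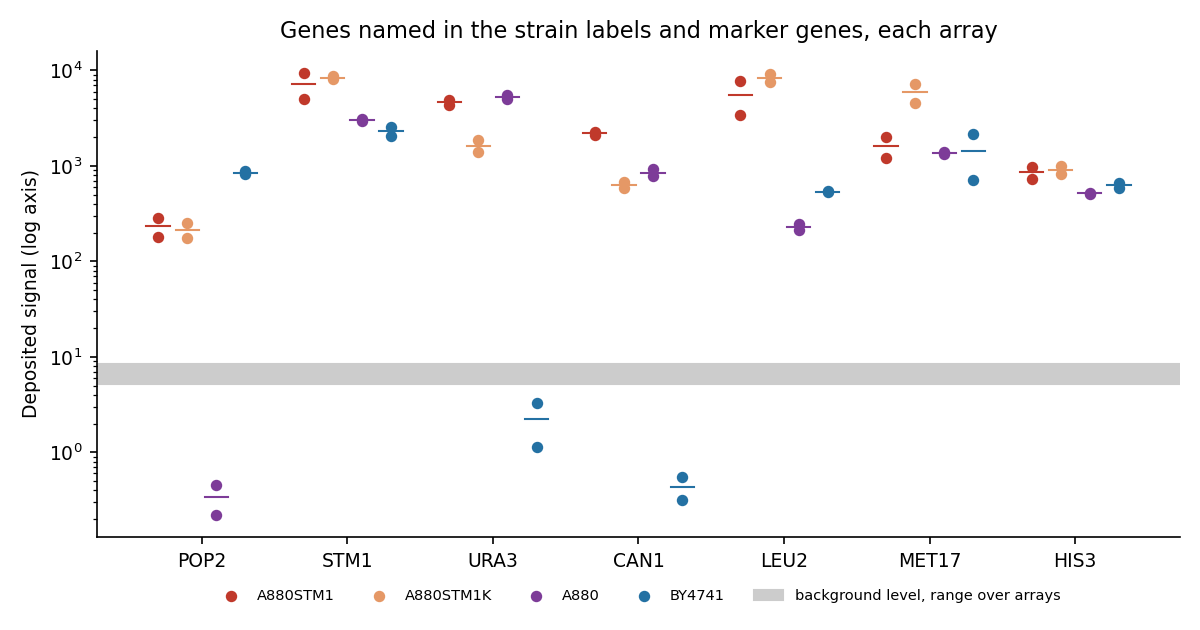
Deposited signal on a log axis for the genes named in the strain labels and for marker genes, with a point per array, a bar at the mean of each strain, and a gray band for the range of the background level. The POP2 points of A880STM1 lie above the band and below BY4741, and those of A880 lie under the band. BY4741 has no URA3 or CAN1 signal above the band.

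Genes of the mating pathway were among the deepest falls. As background, haploid yeast of either mating type express a common group of haploid-specific genes, a cells add a group of their own, and diploid cells formed by mating switch both groups off. Of 13 haploid-specific genes, 9 were lower on the A880STM1 arrays (69.2%, against 6.30% of all probe sets) and none higher. The group median was -1.75 on the log2 scale, or -1.51 relative to all genes. STE18, the gamma subunit of the pheromone receptor's G protein (YJR086W, chromosome X), had 24.0 and 17.7 on the A880STM1 arrays, 975 and 1021 on the A880 arrays and 1017 and 1005 on the BY4741 arrays. Both A880STM1 signals were low while all 4 A880 and BY4741 signals were high, and STE18 fell by 5.62 ± 0.30 on the log2 scale (adjusted p = 3.47e-06). FUS3, the mating MAP kinase (YBL016W, chromosome II), had 18.0 and 31.5 in A880STM1, 728 and 666 in A880 and 528 and 535 in BY4741, and fell by 4.48 ± 0.34 (adjusted p = 9.84e-05). STE5, the scaffold that holds that kinase cascade, had 113 and 108 in A880STM1 and 695 and 629 in BY4741, and fell by 2.58 ± 0.29 (adjusted p = 0.00064). These calls were kept under every alternative, as were those of NEJ1 and RME1.

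NEJ1, a factor of DNA end joining made in haploid cells, had 48.9 and 22.0 on the A880STM1 arrays and 288 and 354 on the BY4741 arrays, and fell by 3.28 ± 0.52 (adjusted p = 0.00445). RME1, the haploid repressor of meiosis, had 154 and 188 in A880STM1, 1380.3 and 1484 in A880 and 1058 and 1219 in BY4741. The A880STM1 signals of both genes lay below those of A880 and BY4741, and RME1 fell by 2.74 ± 0.24 (adjusted p = 0.00019). STE4, the beta subunit of the same G protein, fell by 1.75 ± 0.27 (adjusted p = 0.00355), and its alpha subunit GPA1 fell by 1.64 ± 0.30 (adjusted p = 0.00981). FAR1, which stops the cell cycle for mating, fell by 1.81 ± 0.36 and AXL1, which matures the a-factor pheromone, fell by 1.60 ± 0.30 (adjusted p = 0.0134 and 0.0112). The 4 members that did not pass were STE12, HO, FUS1 and DDI1, with log2 differences of -0.81, -0.78, 0.15 and 0.28. The number of lower members was 6 without A880STM1 replicate 1, 9 without A880STM1 replicate 2, 5 without BY4741 replicate 1 and 6 without BY4741 replicate 2.

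Of 7 a-cell-specific genes, 6 were lower on the A880STM1 arrays (85.7%, against 6.30% of all probe sets). Their median log2 difference was -1.73, or -1.49 relative to all genes. With array weights per group, 3 were called lower. MFA2, which encodes the a-factor pheromone, had 80.6 and 58.3 in A880STM1, 334 and 313 in A880 and 944 and 768 in BY4741. MFA1, the other a-factor gene, had 160.2 and 200.2 in A880STM1, 761 and 1336 in A880 and 1047 and 1225 in BY4741. For both genes the A880STM1 arrays lay below every array of the other two strains. MFA2 fell by 3.63 ± 0.31 (adjusted p = 0.000175), which was kept, and MFA1 fell by 2.66 ± 0.37 (adjusted p = 0.00209). AGA2, the binding subunit of a-agglutinin, fell by 1.87 ± 0.29 (adjusted p = 0.00407). BAR1, the protease that degrades alpha factor, fell by 1.73 ± 0.39, ASG7 fell by 1.48 ± 0.32 and STE2, the alpha-factor receptor, fell by 1.34 ± 0.33 (largest adjusted p = 0.0323). STE6, the a-factor exporter, had 125 and 187 in A880STM1 and 155 and 168 in BY4741 and did not pass (log2 -0.08, adjusted p = 0.881). The count of lower members was 2 without A880STM1 replicate 1, 6 without A880STM1 replicate 2, 3 without BY4741 replicate 1 and 2 without BY4741 replicate 2.

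The alpha-cell-specific genes gave no call in either direction, and 4 of 4 had lower signals in A880STM1, by log2 differences between -0.96 and -0.60. The alpha-factor gene MF(ALPHA)1 had 25.5 and 10.8 in A880STM1 and 38.5 and 27.2 in BY4741, and the a-factor receptor STE3 had 125 and 103 in A880STM1 and 223 and 206 in BY4741 (adjusted p = 0.221 and 0.0772). All 7 markers of a cells and all 11 of haploid cells were above background on each A880STM1 array. So were 99.87% and 99.84% of all S. cerevisiae probe sets on the 2 arrays, and all 4 alpha-cell markers. That count therefore cannot show whether a-cell or haploid genes were still expressed. The summed signal of the 7 a-cell markers was 675 and 761 on the A880STM1 arrays, 2942 and 3367 on the A880 arrays and 3069.6 and 3073 on the BY4741 arrays. That of the 11 haploid markers was 2293 and 2279 on the A880STM1 arrays, 7470.2 and 7496 on the A880 arrays and 6251 and 6289 on the BY4741 arrays. On the A880STM1K arrays the a-cell sum was 940 and 842 and the haploid sum 2169 and 2602. Both sums were thus below those of A880 and BY4741 in A880STM1K too, and the fall was not particular to A880STM1. The part of mating type or ploidy in the other differences was not tested. In RNA of whole cultures, fewer cells that express a gene and less of its RNA per cell cannot be told apart. Pheromone-induced genes had a median log2 difference of -0.48, or -0.24 relative to all genes. Of all probe sets 5.40% were called higher and 6.30% lower. Among 20 pheromone-induced genes, 3 were lower and none higher: ASG7 again, PRM5 (-1.08 ± 0.30) and PRM2 (-1.30 ± 0.37), with adjusted p-values up to 0.0462, and no member was called without A880STM1 replicate 1 or either BY4741 array.

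**Figure D3:**
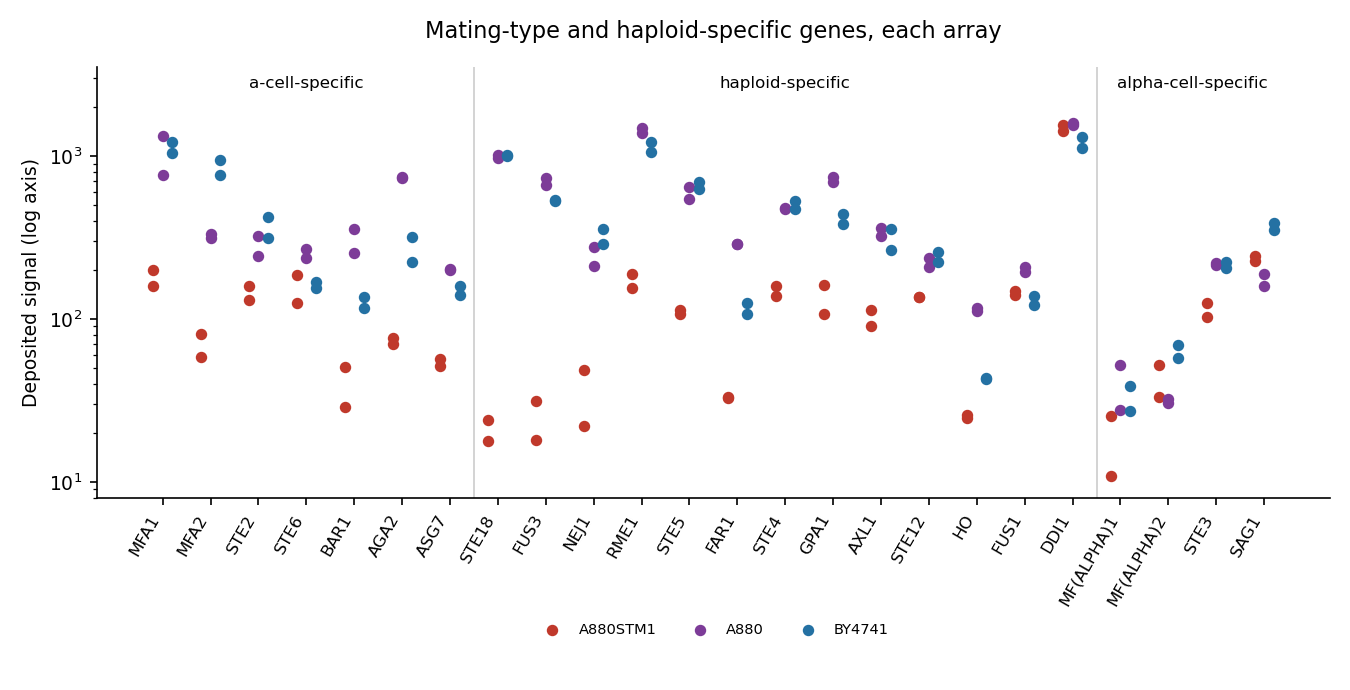
Deposited signal on a log axis for a-cell-specific, haploid-specific and alpha-cell-specific genes, with a point per array. The A880STM1 points of STE18, FUS3, NEJ1, RME1, STE5 and MFA2 lie below all A880 and BY4741 points, those of DDI1 do not, and those of STE6 overlap with BY4741.

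Among 21 genes of meiosis entry, 4 were higher (19.05%) and 1 lower (4.76%) on the A880STM1 arrays, against 5.40% and 6.30% of all probe sets. IME1, the transcription factor that starts meiosis, had 1294 and 1526 on the A880STM1 arrays, 2094 and 2353 on the A880 arrays and 179 and 212 on the BY4741 arrays. Both A880STM1 arrays lay between the A880 and BY4741 arrays, and the log2 difference from BY4741 was 2.85 ± 0.27 (adjusted p = 0.000267). IME4, an RNA adenosine methyltransferase needed for sporulation, had 315 and 596 in A880STM1, 26.3 and 20.2 in A880 and 41.6 and 38.2 in BY4741. Here the A880STM1 arrays stood above both other strains, with a log2 difference of 3.44 ± 0.39 from BY4741 (adjusted p = 0.000701). An RNA antisense to IME4 is known, and the labels do not say whether the probes tell the strands apart. Both calls were kept. HOP1, a protein of the meiotic chromosome axis, was higher by 1.16 ± 0.33 and MND1, a recombination factor, by 1.32 ± 0.37, while NDT80, the regulator of middle meiosis, was lower (-1.23 ± 0.32), with adjusted p-values of 0.0492, 0.0452 and 0.0376. RED1, another axis protein, was noticed after its values were seen, with 386 and 691 in A880STM1, 858 and 960.3 in A880 and 130.1 and 125 in BY4741 (log2 2.02 ± 0.30, adjusted p = 0.00313). Of the other markers of cells entering meiosis, IME2 (0.95), SPO11 (-0.54) and SPO13 (0.83) did not pass. The group count was 2 higher and 0 lower without A880STM1 replicate 1, and the same without either BY4741 array, and 2 higher and 3 lower without A880STM1 replicate 2.

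Within CCR4-NOT, the complex that POP2 belongs to, 1 of 9 measured subunits was higher and 1, POP2 itself, was lower. Each call made up 11.1% of the subunits, against 5.40% higher and 6.30% lower over all probe sets. CCR4, the other deadenylase, had 961 and 1153 on the A880STM1 arrays, 2062 and 2031 on the A880 arrays and 640.1 and 633 on the BY4741 arrays. The A880STM1 signals lay between those of A880 and BY4741, with a log2 difference of 0.73 ± 0.21 from BY4741 (adjusted p = 0.0466). The scaffold CDC39 (-0.49), the ubiquitin ligase MOT2 (-0.72) and CAF130 (-1.04) did not pass, and the lowest adjusted p of these 3 was 0.058. No subunit was called without A880STM1 replicate 1 or either BY4741 array, and without A880STM1 replicate 2 the count was 1 higher and 4 lower.

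Of 25 other factors of messenger RNA decay, 1 was lower (4.0%, under the 6.30% of all probe sets) and none higher. It was the decapping subunit DCP1 (-1.05 ± 0.29, adjusted p = 0.0437). The median log2 difference of the 25 factors was -0.56, or -0.32 relative to all genes. The PUF family, RNA-binding proteins that bring messages to CCR4-NOT, gave 2 calls of opposite direction among 6 members. Each was 16.7% of the family, against 5.40% higher and 6.30% lower over all probe sets. PUF3, which binds messages of mitochondrial proteins, had 347 and 547 in A880STM1, 636 and 425 in A880 and 172 and 111 in BY4741, and was higher by 1.65 ± 0.34 (adjusted p = 0.0171). PUF4 was lower, at -1.04 ± 0.30 (adjusted p = 0.0488), with 467 and 692 in A880STM1 and 1299 and 1059 in BY4741. MPT5, also called PUF5, had 347 and 541 in A880STM1 and 254 and 230.0 in BY4741 and did not pass (log2 0.84, adjusted p = 0.0795). Of 13 genes of arginine methylation and of proteins with arginine-glycine repeats, 2 were higher (15.4%, against 5.40% of all probe sets). They were NPL3 (1.01 ± 0.28), a messenger RNA export factor, and DED1 (1.41 ± 0.32), a helicase of translation initiation (adjusted p = 0.0458 and 0.0232). DCP1, PUF4, NPL3 and DED1 were not called without A880STM1 replicate 1 or either BY4741 array, and PUF3 was not called without A880STM1 replicate 1 (adjusted p = 0.0598) or BY4741 replicate 2 (0.172).

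Genes of respiration were higher in A880STM1. Of 37 nuclear genes of the respiratory chain and ATP synthase, 16 rose (43.2%, against 5.40% of all probe sets) and none fell. Their median log2 difference was 0.65, or 0.89 relative to all genes, and 37 of 37 lay above the median of all genes. Every member also lay above it in the glycolysis, heat shock chaperone and proteasome groups (13 of 13, 25 of 25 and 33 of 33). After quantile normalization the relative median of the respiratory group was 0.48, with 17 members called higher. The group median was 0.93 on A880STM1 replicate 1 and 0.46 on replicate 2 against the BY4741 mean, and for A880 against BY4741 it was 0.16. The number of higher members was 3 without A880STM1 replicate 1, 28 without A880STM1 replicate 2, 4 without BY4741 replicate 1 and 4 without BY4741 replicate 2.

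CYC1, the main form of cytochrome c, had 2254 and 1353 on the A880STM1 arrays, 395 and 359 on the A880 arrays and 302 and 241 on the BY4741 arrays. CYC7, the form favoured at low oxygen, had 4633 and 3383 in A880STM1, 1072 and 1256 in A880 and 928 and 863 in BY4741. In both genes the 2 A880STM1 arrays stood above all A880 and BY4741 arrays, and the log2 differences from BY4741 were 2.70 ± 0.28 for CYC1 and 2.15 ± 0.23 for CYC7 (adjusted p = 0.00042 and 0.000526). Both calls were kept. COX5B, the low-oxygen form of a cytochrome c oxidase subunit, had 4697 and 3213 in A880STM1, 211 and 288 in A880 and 731 and 559 in BY4741. It was higher than BY4741 by 2.60 ± 0.36 (adjusted p = 0.00193), and without A880STM1 replicate 1 the adjusted p was 0.0616. COX5A, its aerobic partner, had 5950.0 and 4029.7 in A880STM1 and 2715 and 2879 in BY4741 and rose by 0.81 ± 0.23 (adjusted p = 0.0462). QCR2, a core subunit of the cytochrome bc1 complex, had 5041 and 4049 in A880STM1 and 1382 and 1363 in BY4741 and rose by 1.72 ± 0.25 (adjusted p = 0.00277). ATP14, a subunit of ATP synthase, rose by 1.20 ± 0.20 and cytochrome c1, CYT1, by 1.11 ± 0.21 (adjusted p = 0.00645 and 0.0112).

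Outside that group, 4 further genes of respiratory growth were noticed after their values were seen, and their calls were kept. NDI1, the NADH dehydrogenase facing the mitochondrial matrix, had 5114 and 4415 in A880STM1, 2606 and 2932 in A880 and 1047 and 1063 in BY4741 (log2 2.17 ± 0.26, adjusted p = 0.000814). NDE1, the dehydrogenase facing the cytosol, had 3972 and 3244 in A880STM1, 2628 and 2925 in A880 and 1223 and 1090.2 in BY4741 (log2 1.64 ± 0.21, adjusted p = 0.00127). MIC60, which shapes the cristae of the inner membrane, had 1565 and 1885 in A880STM1, 653 and 627 in A880 and 314 and 285 in BY4741 (log2 2.52 ± 0.22, adjusted p = 0.00019). In each of these 3 genes the A880STM1 arrays were the highest and the BY4741 arrays the lowest of the 3 strains. RGI1, a protein of respiratory growth, had 10286 and 6202 in A880STM1 and 2216 and 1466 in BY4741 (log2 2.15 ± 0.29, adjusted p = 0.00181).

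Of 20 genes known to be induced at low oxygen, 6 rose (30.0%) and 1 fell (5.0%), against 5.40% and 6.30% of all probe sets. Beside CYC7 and COX5B, OLE1, the fatty acid desaturase, rose by 1.43 ± 0.23, HEM13, of haem synthesis, by 1.06 ± 0.24 and CYB5, cytochrome b5, by 0.98 ± 0.24 (largest adjusted p = 0.0278). TIR2, a cell wall mannoprotein, had 130.0 and 198 in A880STM1 and 534 and 560.1 in BY4741, and fell by 1.77 ± 0.34 (adjusted p = 0.0122). The median of the group was 0.34 relative to all genes, its members ran from -1.77 to 2.60, and the count was 2 higher and 0 lower without A880STM1 replicate 1 or either BY4741 array. Of 5 aerobic partners of such genes, 2 rose (40.0%), CYC1 and COX5A, and none fell. In the tricarboxylic acid cycle 1 of 17 genes rose (5.88%), IDH2 (0.84 ± 0.23, adjusted p = 0.0449), a subunit of isocitrate dehydrogenase, and none fell. Among 69 mitochondrial ribosomal proteins 1 rose (1.45%), MRPL32, with 652 and 633 in A880STM1, 1024 and 988 in A880 and 228 and 219.9 in BY4741 (log2 1.52 ± 0.22, adjusted p = 0.0026), a call that was kept. Their group median was -0.12 in A880STM1 and 0.52 in A880, each against BY4741.

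**Figure D4:**
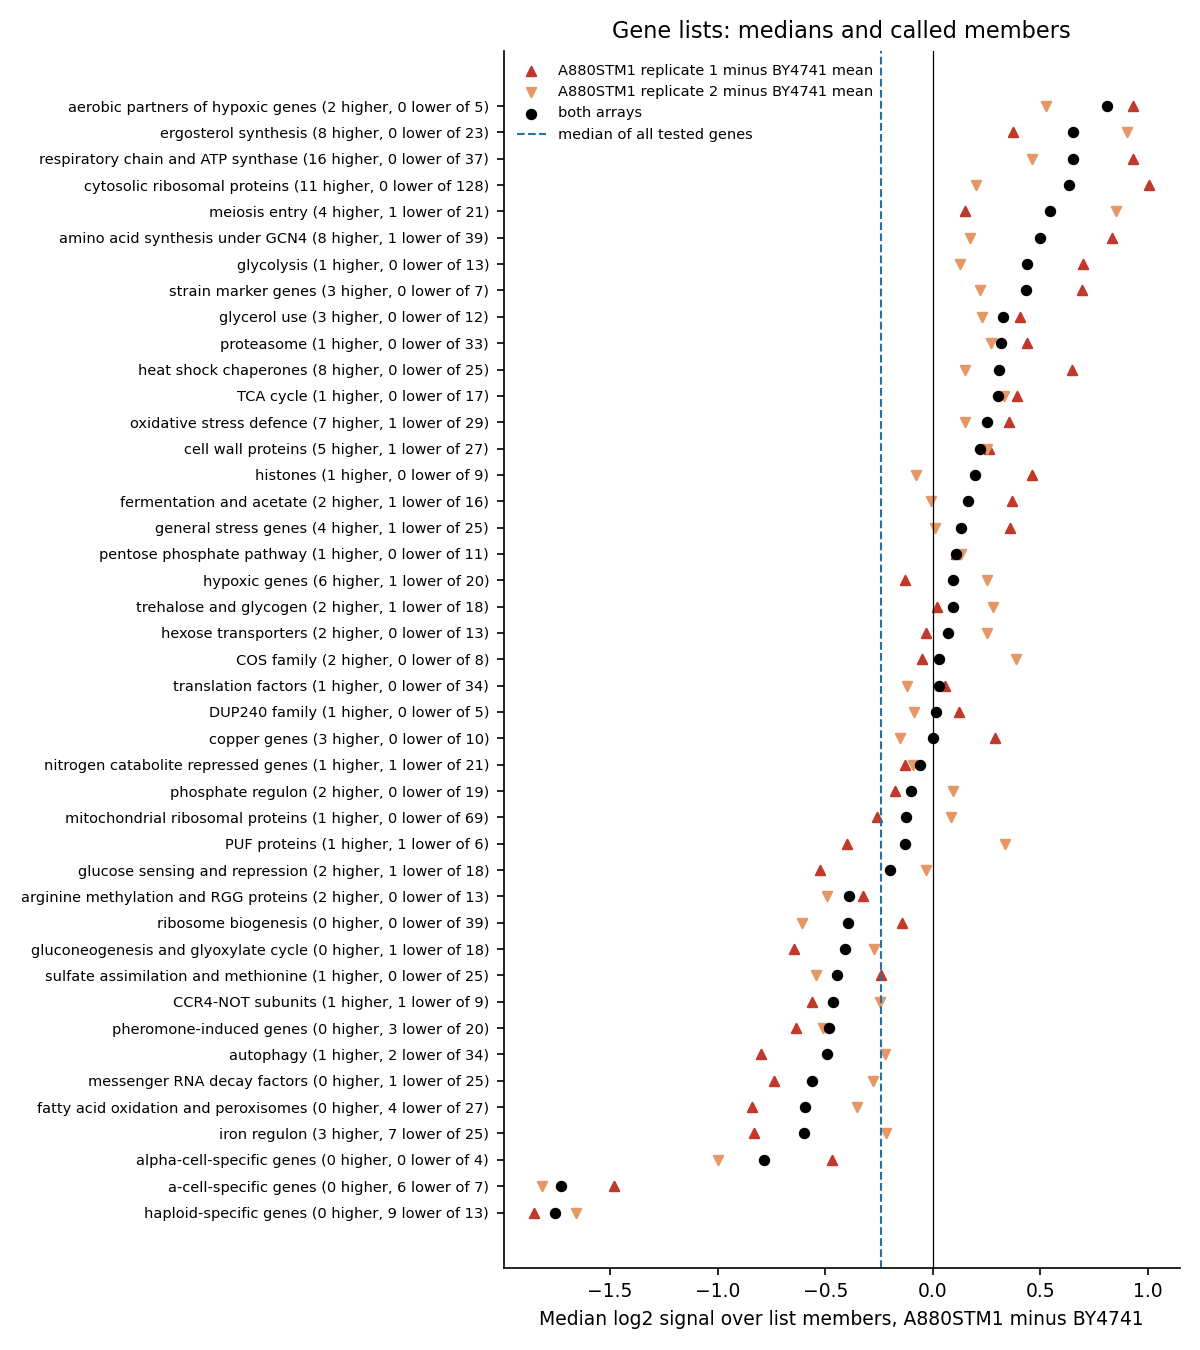
Median log2 signal of A880STM1 minus BY4741 over the tested members of each gene group, ordered from the highest median at the top, with black points for both arrays, triangles for each A880STM1 array against the BY4741 mean, and a dashed line at the median of all tested genes (-0.24). The labels give the members called higher and lower and the number tested. Haploid-specific and a-cell-specific genes have the lowest medians, -1.75 and -1.73, and the respiratory and ergosterol groups lie to the right of 0 on both arrays.

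Of 12 genes that handle glycerol itself, 3 rose (25.0%, against 5.40% of all probe sets) and none fell, with a median log2 difference of 0.57 relative to all genes. STL1, the glycerol importer, had 279 and 647 on the A880STM1 arrays, 1538 and 1615 on the A880 arrays and 127 and 116 on the BY4741 arrays. The A880STM1 arrays lay between the other strains, and the log2 difference from BY4741 was 1.81 ± 0.37 (adjusted p = 0.0162). GCY1, an aldo-keto reductase that can oxidise glycerol, rose by 0.93 ± 0.22 and DAK2, a dihydroxyacetone kinase, by 1.23 ± 0.33 (adjusted p = 0.0277 and 0.0403). Glycerol kinase GUT1 had 2297 and 3569 in A880STM1 and 4069.6 and 3808 in BY4741, and the mitochondrial glycerol phosphate dehydrogenase GUT2 had 5613 and 5577 in A880STM1 and 6550.2 and 6036 in BY4741. Neither passed, with log2 differences of -0.46 and -0.17 (adjusted p = 0.312 and 0.615). GPD2, a glycerol phosphate dehydrogenase of glycerol synthesis, had the largest difference of the group, with 2185 and 573 in A880STM1, 2186 and 267 in A880STM1K, 541 and 165 in A880 and 454 and 148 in BY4741. Replicate 1 was the brighter one in all 4 strains, and GPD2 did not pass (log2 2.11 ± 0.96, adjusted p = 0.15). No glycerol gene was called without either BY4741 array, 1 without A880STM1 replicate 1, and 3 higher and 1 lower without A880STM1 replicate 2.

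Gluconeogenesis and the glyoxylate cycle gave 1 lower gene of 18 (5.56%, under the 6.30% of all probe sets) and none higher. It was CRC1, the mitochondrial carnitine carrier (-1.08 ± 0.25, adjusted p = 0.0237). Of 27 genes of fatty acid oxidation and peroxisomes, 4 were lower (14.8%, against 6.30% of all probe sets) and none higher. All 4 were peroxins, which build peroxisomes or carry proteins into them. PEX15 was lower by -1.02 ± 0.23, PEX13 by -1.15 ± 0.27, PEX19 by -0.78 ± 0.19 and PEX21 by -1.38 ± 0.38 (largest adjusted p = 0.043). The median of the group was -0.35 relative to all genes, 23 of 27 members were lower without overlap (44.3% of all probe sets were), and the number of lower calls was 0 without A880STM1 replicate 1 or either BY4741 array and 14 without A880STM1 replicate 2.

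Several genes of glucose use were higher on glycerol in A880STM1. SUC2, the invertase that glucose represses, had 9431 and 5325 on the A880STM1 arrays, 1586 and 2169 on the A880 arrays and 671 and 640.3 on the BY4741 arrays, with the strains fully apart. It was higher than BY4741 by 3.43 ± 0.39 (adjusted p = 0.000662), and the call was kept. HXK2, the main hexokinase of growth on glucose, had 5565 and 2241 in A880STM1, 476 and 411 in A880 and 1469 and 1177 in BY4741, with replicate 1 of A880STM1 well above replicate 2. HXK2 was higher than BY4741 by 1.43 ± 0.36 and HXK1, the hexokinase of other carbon sources, by 0.96 ± 0.25, whereas RGT1, a repressor of glucose transporter genes, was lower (-1.07 ± 0.29), and these were the 3 calls among 18 genes of glucose sensing and repression (largest adjusted p = 0.043). Of 13 hexose transporters, HXT2 (1.38 ± 0.26) and HXT7 (1.04 ± 0.25), both of high affinity, were higher (adjusted p = 0.0112 and 0.0302). In glycolysis 1 of 13 genes was higher, the enolase ENO2 (1.02 ± 0.26, adjusted p = 0.0355). Higher calls made up 11.1% of the sensing and repression genes, 15.4% of the transporters and 7.69% of the glycolysis genes. Of all probe sets 5.40% were called higher. The lower call, RGT1, was 5.56% of its group, against 6.30% of all probe sets. None of the calls of these 3 groups remained without A880STM1 replicate 1 or without either BY4741 array, and without A880STM1 replicate 2 11 glycolysis genes were called higher.

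The remaining groups of carbon metabolism gave 7 calls in all, and the higher ones made up 12.5% of the fermentation and acetate genes, 11.1% of the trehalose and glycogen genes and 9.09% of the pentose phosphate genes, against 5.40% of all probe sets. Of 16 genes of fermentation and acetate, ADH6, an NADPH-dependent alcohol dehydrogenase, was higher by 1.76 ± 0.33 and ALD3, a cytosolic aldehyde dehydrogenase, by 1.53 ± 0.33, and PDC6, a minor pyruvate decarboxylase, was lower (-1.12 ± 0.32; largest adjusted p = 0.0462). Of 18 trehalose and glycogen genes, UGP1 (0.80 ± 0.20) and PGM1 (1.29 ± 0.34), which make and feed UDP-glucose, were higher and glycogen synthase GSY2 was lower (-0.90 ± 0.26; largest adjusted p = 0.0497). In the pentose phosphate pathway 1 of 11 was higher, GND1 (0.83 ± 0.24, adjusted p = 0.0481). No call of these 3 groups remained without A880STM1 replicate 1, that of ADH6 alone remained without BY4741 replicate 1, and that of ALD3 alone without BY4741 replicate 2.

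Of 23 genes of ergosterol synthesis, 8 were higher (34.8%, against 5.40% of all probe sets) and none lower. Their median log2 difference was 0.65, or 0.89 relative to all genes, and the relative median was 0.94 after quantile normalization. ERG6, the sterol methyltransferase, had 2102 and 2532 on the A880STM1 arrays, 751 and 1379 on the A880 arrays and 508 and 376 on the BY4741 arrays. ERG5, a sterol desaturase, had 615 and 828 in A880STM1, 685 and 1276 in A880 and 107 and 138 in BY4741. Both genes were higher on each A880STM1 array than on each BY4741 array, by log2 2.40 ± 0.29 for ERG6 and 2.55 ± 0.33 for ERG5 (adjusted p = 0.00109 and 0.0014), and both calls were kept. ERG26, of sterol demethylation, rose by 2.03 ± 0.33, MVD1, of the mevalonate pathway, by 1.18 ± 0.24 and ERG2, the sterol isomerase, by 1.06 ± 0.22 (largest adjusted p = 0.0159). ERG25, the methyl sterol oxidase, had 1651 and 1671 in A880STM1, 3043 and 3999.8 in A880 and 789 and 763 in BY4741, and was higher than BY4741 by 1.10 ± 0.24 (adjusted p = 0.0214). The group median was 0.67 for A880 against the same BY4741 arrays. The count of higher members was 2 without A880STM1 replicate 1, 8 without A880STM1 replicate 2 (with 1 lower), and 3 without either BY4741 array.

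Of 10 copper genes 3 were higher (30.0%, against 5.40% of all probe sets) and none lower. The group median log2 difference was 0.00, and all 3 calls were kept. CTR3, a high-affinity copper importer, had 1026 and 1941 on the A880STM1 arrays, 1189 and 1502 on the A880 arrays and 77.5 and 52.3 on the BY4741 arrays, and rose by log2 4.47 ± 0.36 (adjusted p = 0.000124). CTR1, the other plasma membrane importer, had 838 and 1181 in A880STM1, 207 and 192 in A880 and 193 and 125 in BY4741, and rose by 2.68 ± 0.35 (adjusted p = 0.00148). MAC1, the transcription factor that activates both when copper is short, had 1067 and 847 in A880STM1, 419.5 and 418 in A880 and 288 and 301 in BY4741, and rose by 1.69 ± 0.25 (adjusted p = 0.00313). A880 stood with A880STM1 for CTR3 and with BY4741 for CTR1. A880STM1K stood with A880STM1 for CTR1, with 631 and 1173. CTR1 lies beside AXL1 on chromosome XVI in the gene order of assembly R64, and the pair moved in opposite directions. The vacuolar importer CTR2 (-0.71) and the copper pump CCC2 (-0.94) did not pass (adjusted p = 0.071 and 0.0739).

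Of 25 genes of the iron regulon, 3 were higher (12.0%) and 7 lower (28.0%), against 5.40% and 6.30% of all probe sets. ARN2, an importer of iron chelates, had 116 and 276 on the A880STM1 arrays, 2.43 and 0.849 on the A880 arrays and 1278 and 1158 on the BY4741 arrays. All 4 arrays of A880STM1 and BY4741 showed it, those of A880 had no signal above background, and it was lower in A880STM1 than in BY4741 by -2.77 ± 0.54 (adjusted p = 0.0127). ARN1, a related importer, was lower by -1.40 ± 0.28 and FRE3, a reductase of iron chelates, by -1.53 ± 0.30 (adjusted p = 0.0147 and 0.0144). Higher were CTH1, which speeds decay of messages of iron-using proteins, by 1.42 ± 0.24, the haem oxygenase HMX1 by 1.36 ± 0.25 and the mitochondrial iron carrier MRS4 by 1.66 ± 0.32 (largest adjusted p = 0.0129). No iron gene was called without A880STM1 replicate 1, 3 higher and 12 lower without A880STM1 replicate 2, 2 higher without BY4741 replicate 1 and 1 higher without BY4741 replicate 2. Of 19 phosphate genes 2 were higher (10.5%, against 5.40% of all probe sets). The phosphate importer PHO84 had 266 and 268 in A880STM1, 38.1 and 37.0 in A880 and 43.6 and 49.9 in BY4741, and rose by 2.52 ± 0.34 (adjusted p = 0.00181), which was kept. SPL2, a regulator of low-affinity phosphate uptake, rose by 1.37 ± 0.27 (adjusted p = 0.0134), and this call was lost without A880STM1 replicate 1 or either BY4741 array.

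Among 39 genes of amino acid synthesis that the factor GCN4 is known to control, 8 were higher (20.5%) and 1 lower (2.56%). Of all probe sets 5.40% were called higher and 6.30% lower. LEU2, given above among the markers, had the smallest p of the group. LYS4, of lysine synthesis, had 2185 and 1382 in A880STM1, 303 and 269 in A880 and 385 and 259.8 in BY4741, and rose by 2.46 ± 0.34 (adjusted p = 0.00203). HIS1, of histidine synthesis, had 1422 and 460.0 in A880STM1 and 127 and 165 in BY4741, and rose by 2.49 ± 0.48 (adjusted p = 0.0127). Both A880STM1 arrays lay above both BY4741 arrays for each gene, and HIS1 was much brighter on replicate 1 than on replicate 2. HIS2 rose by 1.47 ± 0.24 and TRP3, of tryptophan synthesis, by 1.46 ± 0.32, while ILV6, a regulatory subunit of branched-chain synthesis, fell by 0.82 ± 0.20 (largest adjusted p = 0.0316). The median of the group was 0.83 on A880STM1 replicate 1 and 0.17 on replicate 2, and the count of higher members was 2 without A880STM1 replicate 1, 19 without A880STM1 replicate 2, 2 without BY4741 replicate 1 and 3 without BY4741 replicate 2. Of 25 genes of sulfate assimilation and methionine synthesis, MET22 alone was called (4.0%), higher by 1.04 ± 0.22 (adjusted p = 0.0178). Nitrogen catabolite repressed genes gave 2 calls among 21 (4.76% higher and 4.76% lower). The allantoate permease DAL5 was higher (1.25 ± 0.26) and the GATA repressor DAL80 lower (-1.81 ± 0.52), with adjusted p-values of 0.0175 and 0.0481.

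Stress genes were higher in part. Of 29 genes of oxidative stress defence 7 rose (24.1%) and 1 fell (3.45%), against 5.40% and 6.30% of all probe sets. OYE2, an NADPH oxidoreductase, had 4929 and 3435 on the A880STM1 arrays, 799.8 and 633 on the A880 arrays and 1051 and 771 on the BY4741 arrays, and rose by 2.19 ± 0.26 (adjusted p = 0.000874), which was kept. OYE3, its relative, had 2039 and 932 in A880STM1, 289 and 281 in A880 and 126 and 126 in BY4741, and rose by 3.45 ± 0.48 (adjusted p = 0.00213). Thioredoxin reductase TRR1 rose by 2.38 ± 0.34, cytosolic catalase CTT1 by 1.93 ± 0.33 and the peroxiredoxin TSA2 by 1.93 ± 0.41 (largest adjusted p = 0.0178). YAP1, the factor that activates many of these genes, was lower, with 838 and 1530.0 in A880STM1, 2949 and 2769 in A880 and 2669 and 2531 in BY4741 (log2 -1.20 ± 0.29, adjusted p = 0.0275). The count of higher members was 1 without A880STM1 replicate 1, 11 without A880STM1 replicate 2, 3 without BY4741 replicate 1 and 4 without BY4741 replicate 2.

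Of 25 heat shock chaperones 8 rose (32.0%, against 5.40% of all probe sets) and none fell. Their median log2 difference was 0.31, or 0.55 relative to all genes, and the relative median was 0.19 after quantile normalization. HSP30, a plasma membrane stress protein, had 8823 and 5474 in A880STM1, 1746 and 1405 in A880 and 1883 and 1471 in BY4741, and rose by 2.06 ± 0.26 (adjusted p = 0.00127). SSA4, a stress-induced HSP70, had 9559.5 and 5937 in A880STM1, 5067 and 5691 in A880 and 2347 and 1607 in BY4741, and rose by 1.96 ± 0.27 (adjusted p = 0.00203). Both calls were kept. SSA2, another HSP70, rose by 2.56 ± 0.35, the cyclophilin CPR6 by 1.41 ± 0.22, SSE2 by 1.24 ± 0.25 and the mitochondrial co-chaperonin HSP10 by 1.25 ± 0.27 (largest adjusted p = 0.0192). The count was 3 without A880STM1 replicate 1, 14 without A880STM1 replicate 2, 3 without BY4741 replicate 1 and 4 without BY4741 replicate 2. Among 25 general stress genes 4 rose, CTT1 and ALD3 again, DDR48 (1.43 ± 0.30) and the aldose reductase GRE3 (1.00 ± 0.22), and 1 fell, GRE2 (-1.18 ± 0.30), with adjusted p-values up to 0.0329. Of all probe sets 5.40% were called higher and 6.30% lower, and the lower call was a smaller share of this group. The median of the general stress genes was 0.37 relative to all genes, and 0.005 after quantile normalization. Against the BY4741 mean their median was 0.36 on A880STM1 replicate 1 and 0.01 on replicate 2.

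Of 27 cell wall genes 5 rose (18.5%) and 1, TIR2, fell (3.7%), against 5.40% and 6.30% of all probe sets. PIR1, a wall protein bound to glucan, had 4264 and 2523 in A880STM1, 4639.7 and 4538 in A880 and 557 and 662 in BY4741, and rose by 2.43 ± 0.26 (adjusted p = 0.000465). PIR3, of the same family, had 1138 and 1017 in A880STM1, 1952 and 2441 in A880 and 320.2 and 260.2 in BY4741, and rose by 1.90 ± 0.25 (adjusted p = 0.0014). Both calls were kept, and in both genes the A880 arrays were brighter than the A880STM1 arrays. The glucanase SCW4 rose by 1.26 ± 0.29, the glucan-remodelling GAS1 by 1.61 ± 0.37 and HSP150 by 0.91 ± 0.25 (largest adjusted p = 0.0425). The count of higher members was 2 without A880STM1 replicate 1 or either BY4741 array and 9 without A880STM1 replicate 2.

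Cytosolic ribosomal proteins showed how far single arrays set the count. Of 128 genes 11 were called higher (8.59%, against 5.40% of all probe sets) and none lower, 125 of 128 lay above the median of all genes, and the median log2 difference was 0.63. That median was 1.00 on A880STM1 replicate 1 and 0.20 on replicate 2, and -0.01 for A880 against BY4741. Relative to all genes the group median of A880STM1 was 0.87, and 0.54 after quantile normalization. No member was called without A880STM1 replicate 1 or either BY4741 array, 85 were called without A880STM1 replicate 2, and 2 with equal array medians. RPS21B had 7228 and 3975 in A880STM1 and 1923 and 2183 in BY4741 (log2 1.39 ± 0.30, adjusted p = 0.0186), and RPP2A had 6472 and 3202 in A880STM1 and 1743 and 1546 in BY4741 (log2 1.47 ± 0.32, adjusted p = 0.0197). For 26 of the 128 the probe set is shared with a near-identical gene, and those values cannot be given to 1 copy. None of 39 genes of ribosome biogenesis was called, with a group median of -0.39. Of 33 proteasome genes 1 was higher (3.03%), PRE8 (0.81 ± 0.20, adjusted p = 0.0339). All 33 of 33 lay above the median of all genes, at a group median of 0.32 in A880STM1 and 0.62 in A880. The A880STM1 median relative to all genes was 0.56, and 0.25 after quantile normalization. Of 34 translation factors 1 was higher (2.94%), FUN12 (0.76 ± 0.22, adjusted p = 0.0488), which joins the ribosomal subunits.

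Of 34 autophagy genes 1 was higher (2.94%) and 2 were lower (5.88%), shares under the 5.40% and 6.30% of all probe sets. They were ATG41 (1.24 ± 0.29), ATG11 (-1.21 ± 0.25) and ATG26 (-0.91 ± 0.25), with adjusted p-values up to 0.0458. Of 9 histone genes the histone H2B gene HTB2 alone was called (11.1%), higher by 1.31 ± 0.34 (adjusted p = 0.0389). Subtelomeric COS genes gave 2 higher calls of 8 (25.0%). COS7 had 2494 and 2821 in A880STM1, 1203 and 951 in A880 and 986 and 981 in BY4741 and rose by 1.43 ± 0.22 (adjusted p = 0.00324), which was kept, and COS2 rose by 1.04 ± 0.21 (adjusted p = 0.0153). In the DUP240 family of membrane proteins 1 of 5 was higher, UIP3 (0.74 ± 0.21, adjusted p = 0.0495). Apart from that of COS7, these calls were lost without A880STM1 replicate 1 and without either BY4741 array. Calls were spread over all 16 chromosomes, with between 9.20% and 16.7% of the tested genes of a chromosome called.

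Beyond the groups, the genes with the largest kept differences were a mixed set. YHB1, the flavohaemoglobin that removes nitric oxide, had 6975 and 2902 on the A880STM1 arrays, 637 and 603 on the A880 arrays and 502 and 401 on the BY4741 arrays, and rose by 3.33 ± 0.34 (adjusted p = 0.000432). CIN5, a basic leucine zipper transcription factor of stress tolerance, had 3539.7 and 1883 in A880STM1, 462 and 561 in A880 and 277 and 254 in BY4741, and rose by 3.28 ± 0.30 (adjusted p = 0.000211). For each of the 2, A880STM1 was the highest of the 3 strains on both arrays. YOL014W, a gene with no function given here, had 4539 and 2542 in A880STM1, 51.8 and 41.2 in A880 and 244 and 206 in BY4741, and rose by 3.92 ± 0.44 (adjusted p = 0.000659), while A880 lay below BY4741. A further 3 genes known by systematic name, YLR460C (3.79 ± 0.47), YJL213W (3.46 ± 0.31) and YNR014W (3.30 ± 0.28), rose to a like extent (largest adjusted p = 0.0012). YJL213W had 1708 and 1605 in A880STM1 and 172 and 132 in BY4741, and YLR460C had 2153 and 724 in A880STM1 and 111 and 73.6 in BY4741.

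Among the kept falls outside mating, ICS2 had 237 and 163 on the A880STM1 arrays, 1054 and 1863 on the A880 arrays and 1846 and 2265 on the BY4741 arrays, and fell by 3.38 ± 0.35 (adjusted p = 0.000454). QDR2, a plasma membrane exporter of drugs and cations, had 34.0 and 42.8 in A880STM1, 22.8 and 22.5 in A880 and 257 and 200.3 in BY4741, and fell by 2.57 ± 0.34 (adjusted p = 0.00163), with A880 lower still. RDH54, a DNA translocase of recombination, had 149 and 258 in A880STM1, 932 and 756 in A880 and 873 and 792 in BY4741, and fell by 2.08 ± 0.30 (adjusted p = 0.00269). YLR031W fell by 3.12 ± 0.30 and its neighbour on chromosome XII, YLR030W, fell by 2.67 ± 0.34 (adjusted p = 0.000321 and 0.00127). The next gene in that row, RAD5, a DNA repair helicase looked at after these values were seen, was lower too, with 229 and 328 in A880STM1 and 556 and 623 in BY4741 (log2 -1.10 ± 0.28, adjusted p = 0.0337). YNL146C-A fell by 3.06 ± 0.38 (adjusted p = 0.0012) and is separated from MFA2 on chromosome XIV by 1 gene, YNL146W, which did not pass (log2 -1.02, adjusted p = 0.0757). YCL021W-A fell by 2.70 ± 0.32 (adjusted p = 0.00087). YAR009C, a piece of a Ty1 transposon, fell by 2.10 ± 0.31 (adjusted p = 0.00272), but its probe set is shared with other copies and names no single one.

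**Figure D5:**
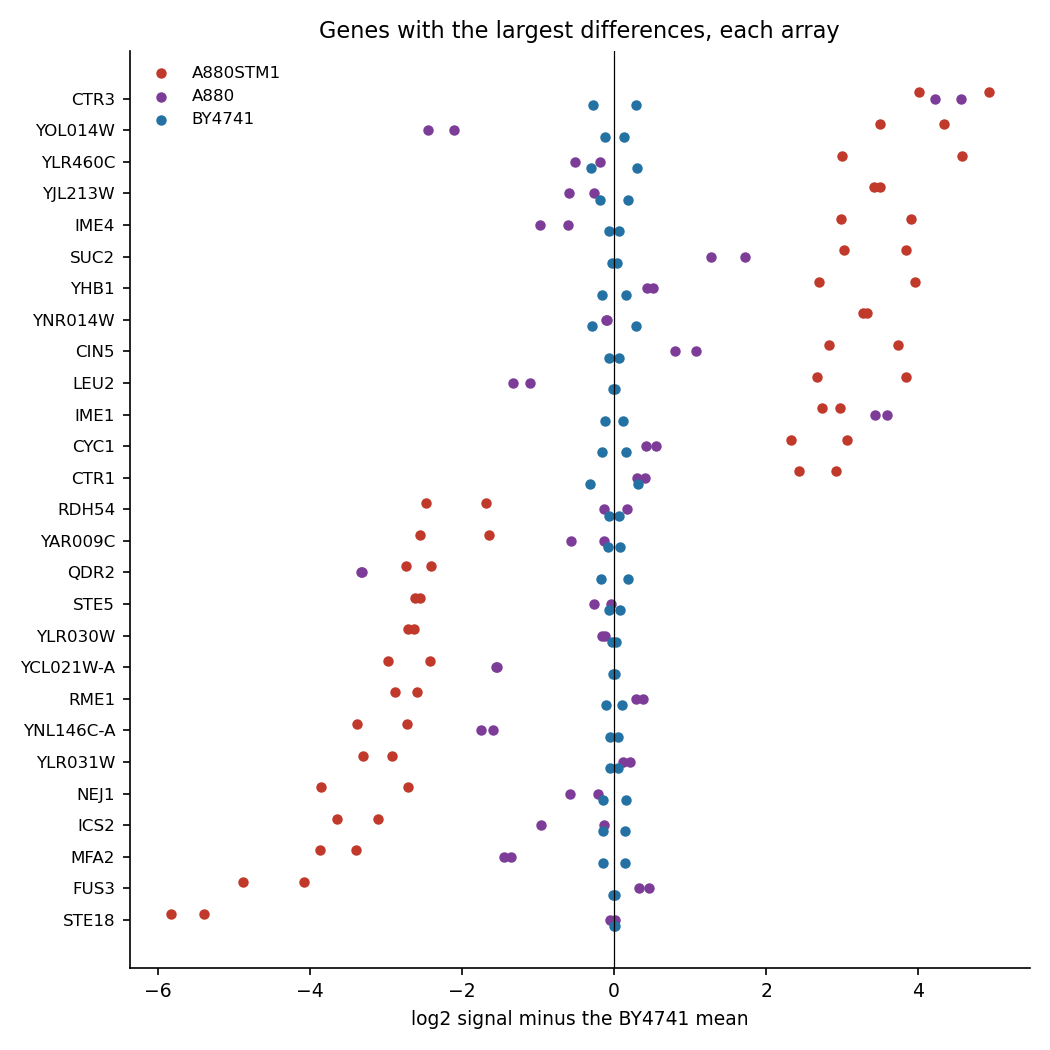
Log2 signal of each array minus the BY4741 mean for the largest kept rises (top) and falls (bottom), with URA3, CAN1 and YBR013C left out because 1 strain is at background. The A880STM1 points of these genes lie beyond both BY4741 points, while the A880 points lie near BY4741 for STE18, FUS3, YJL213W, YNR014W and CTR1 and near A880STM1 for CTR3 and IME1.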

How the data were processed

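Biotinylated RNA of 8 cultures, prepared from 10 µg total RNA each, was measured on Affymetrix yeast arrays, per the labels. The authors deposited 1 linear intensity per probe set and array. The submitters' processing notes name MAS5, and its version is not given in the sources used here. Arrays had been brought to a common scale, since their trimmed means lay between 499.79 and 499.88. The array holds 10928 probe sets, and 5498 of them match a single S. cerevisiae gene, while 128 of those tested are shared between near-identical genes. Names come from the platform table, with 12 symbols updated through RefSeq assembly R64.

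Tests used the log2 of each deposited intensity. Background was the 90th percentile of an array's 1746 probe sets for the other yeast species, and probe sets above it on at least 2 arrays were tested. Strain means over all 8 arrays were modelled in limma 3.58.1 (R 4.3.3). The eBayes step used the intensity trend, with 4 residual and a median of 6.56 prior degrees of freedom, and adjustment was by Benjamini-Hochberg. The procedure was tested on simulated data. P-values measure the spread between separate cultures pooled over the 4 strains, and the number of arrays limits the precision. Replicates differed by a larger median in A880STM1 (0.465) than in BY4741 (0.144) or A880 (0.118), so the pooled spread understates that of A880STM1. The series text speaks of separate experiments and does not tie the replicate numbers to them, so the numbers were not taken to pair the cultures (2 pairs, correlation of their deviations 0.22).

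Genes with several probe sets are given by the brightest. Named are POP2, STM1 and marker genes, cell type markers, up to 15 largest kept rises and falls, genes at background in 1 strain only, up to 6 called members of each of 43 lists by smallest p, and any member of lists with at most 12. The comparison, lists and rules were chosen with earlier results of these data known. Other settings tried were 2 further scalings (quantiles, array medians), a pseudocount of 16, a floor at background, other filters, all probe sets, no trend, array weights, the 4 arrays alone, the replicate block, stricter thresholds and each array left out.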

Additional observations from a re-analysis of the deposited data

Results flagged for a closer look

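Of 5430 probe sets outside the comparison, 6 had both A880STM1 signals above 5 times background and above 5 times the brighter BY4741 signal, and all 6 are control probe sets. A pair of probe sets for 25S ribosomal RNA had geometric mean signals of 6442 and 6614 on the A880STM1 arrays. The first read 7906 and 5248 on the A880STM1 arrays and 25.6 and 6072 on the A880STM1K arrays. It read 77.8 and 5076 on the A880 arrays and 13.6 and 226 on the BY4741 arrays. Thus it varied widely between replicates of A880STM1K, of A880 and of BY4741. The 3 control probe sets for URA3 had geometric means of 4235, 5260 and 4970 on the A880STM1 arrays, and none read above 6.04 on a BY4741 array. A reporter control probe set had a geometric mean of 95 on the A880STM1 arrays, with 64.8 and 138.8 there, 5.63 and 8.46 on the A880 arrays and 11.1 and 5.70 on the BY4741 arrays. Replicate 1 was brighter than replicate 2 in all 4 strains for the hybridisation controls cre and bioD and the labelling control dap. For cre the signals were 9116 and 4622 in A880STM1, 7328 and 6113 in A880STM1K, 5542 and 4668.5 in A880 and 6657 and 5162 in BY4741. For bioD they were 4939 and 2116 in A880STM1, 4001 and 2838 in A880STM1K, 2684 and 2162 in A880 and 3247 and 2185 in BY4741. For dap they were 591 and 95.7 in A880STM1, 1068 and 331 in A880STM1K, 237 and 96.1 in A880 and 518 and 192 in BY4741. The part of these differences in the calls was not tested beyond the fit with the replicate block.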

How the results depend on the processing

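The comparison gave 643 calls as reported. The total was 371 with all probe sets of the array tested, 362 with array weights per group, 967 with the replicate number as a block (replicate block) and 126 at an adjusted p of 0.01. Higher calls numbered 297, and 495 after quantile normalization and 87 at the stricter threshold. Lower calls numbered 346, and 193 with equal array medians, 156 with all probe sets, 159 with array weights, 556 with the replicate block and 39 at the stricter threshold. Quantile normalization gave 439 lower calls and equal array medians 358 higher ones. With 1 array left out, the calls ranged from 97 to 1951, the higher ones from 67 to 598 and the lower ones from 26 to 1353, with the largest counts without A880STM1 replicate 2. The cause of these shifts was not tested. With the replicate block, GPD2 passed (adjusted p = 0.00162) and 4 in place of 3 glycerol genes were called higher. Replicate 1 deviations correlated between 0.04 and 0.29 over the 6 pairs of strains, 0.22 for A880STM1 and BY4741. POP2 kept its log2 difference of -1.90 with all probe sets (adjusted p = 0.0525) and with array weights (0.122) but not its call, and lay between -2.23 and -1.57 with 1 array left out. STM1 lay between 1.14 and 2.04 with 1 array left out. Of the 143 other called genes named, 139 kept their call after quantile normalization, 117 with equal array medians, 54 without A880STM1 replicate 1, 137 without A880STM1 replicate 2, 60 without BY4741 replicate 1 and 61 without BY4741 replicate 2, and all 143 with the replicate block, the pseudocount or the floor. Signs changed only for genes without a call: GUT2 was 0.10 with equal array medians, MET17 ranged from -0.48 to 1.13 with 1 array left out, and STE6 from -0.37 to 0.21, with 0.12 after quantile normalization and 0.20 with equal array medians.

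With 2 arrays a strain, the test rests on the spread pooled over all 4 strains. When an array was left out, its strain had 1 array, whose spread was assumed to be like that of the other strains. Signal over background limits little, since over 99% of the S. cerevisiae probe sets were above it on each array.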
